A study of Sus scrofa with 24 samples.

Results

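Circular RNAs (circRNAs) whose host gene belongs to the ubiquitin ligase or deubiquitinase families were followed in the spleen of Meishan pigs, an indigenous Chinese breed, from birth to 180 days of age. The spleens of 24 healthy pigs on the same diet were sequenced, with 3 different pigs and 3 libraries at each of 8 stages, named by the days since birth (weekly from 7d to 35d, after a first stage, 1d, and then 120d and 180d), and the labels name no treatment or engineered allele. Each value is the count of reads across a back-splice, which links an exon's end backwards to the start of the same exon or of one before it, and the table holds 3000 circRNAs. The members were chosen by the symbol of the host gene, which had to begin with USP, OTUD, UBE2, UBE3, UBE4, UBR, HERC, HECTD, TRIM, RNF, CUL, FBXO, FBXW, FBXL or KLHL, without the 2 circRNAs of USP3. The rule found 100 of the 3000 circRNAs, from 59 of the 1670 host genes. It reads symbols and no counts, but it was set with earlier results of these data known. A circRNA of USP3, which was left out, rose with age, as given below.

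Ubiquitin is a small protein that a cell attaches to other proteins to mark them for destruction by the proteasome, for sorting in endosomes or for use in signalling. An E1 enzyme activates ubiquitin, an E2 enzyme of the UBE2 family carries it, and an E3 ligase chooses the substrate and helps to transfer it. HECT ligases (here UBE3, HERC and HECTD proteins) take the ubiquitin onto themselves first, whereas RING ligases (most RNF and TRIM proteins, and the UBR proteins with such a domain) bring the loaded E2 to the substrate. Cullins are scaffolds of larger ligases, in which F-box and KLHL proteins pick the substrates, and deubiquitinases such as the USP and OTUD proteins remove ubiquitin again. In the spleen, as in other lymphoid tissue, ubiquitin is known for its part in NF-kB and antigen receptor signalling, in the interferon response and in the turnover of cell cycle proteins. A circRNA made from such a gene is not itself an enzyme, and neither the linear transcripts nor the proteins of these hosts were analysed here.

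The junctions of the members that carried the changes with age are shown first, since the junction is the only part of a circRNA that sets its reads apart from those of the linear transcript. In each, the last 25 bases of the downstream exon stand in lower case and the first 25 bases of the upstream exon, to which they are joined, in capitals. They were read from the Sscrofa11.1 genome on the strand of the host gene.
USP24 circRNA_32031, exons 20 to 21, chr6:157293187-157294263, plus strand: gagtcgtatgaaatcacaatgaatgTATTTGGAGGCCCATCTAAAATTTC
RNF115 circRNA_26932, exons 2 to 4, chr4:99515003-99537986, plus strand: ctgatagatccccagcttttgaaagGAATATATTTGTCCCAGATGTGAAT
RNF145 circRNA_18123, exons 2 to 3, chr16:64257835-64266685, plus strand: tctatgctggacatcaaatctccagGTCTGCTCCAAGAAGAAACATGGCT
HERC6 circRNA_36152, exons 20 to 22, chr8:130598412-130600711, minus strand: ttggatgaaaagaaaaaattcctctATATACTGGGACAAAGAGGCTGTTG
HERC6 circRNA_36156, exons 18 to 19, chr8:130602052-130603903, minus strand: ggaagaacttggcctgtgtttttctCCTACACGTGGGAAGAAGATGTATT
HERC4 circRNA_13794, exons 15 to 16, chr14:71179829-71198359, minus strand: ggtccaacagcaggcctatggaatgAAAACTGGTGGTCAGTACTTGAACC
UBE3C circRNA_19324, exons 11 to 17, chr18:1589912-1604899, minus strand: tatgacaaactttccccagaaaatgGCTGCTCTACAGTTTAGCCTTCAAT
USP7 circRNA_23543, exons 5 to 7, chr3:33789131-33791943, plus strand: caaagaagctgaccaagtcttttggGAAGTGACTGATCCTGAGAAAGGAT
UBE3A circRNA_02355, exons 2 to 4, chr1:141920484-141927044, plus strand: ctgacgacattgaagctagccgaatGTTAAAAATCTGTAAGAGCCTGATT
All 100 members were flanked in the genome by AG before the upstream exon and GT after the downstream exon, the usual splice signals. The paper used GT-AG signals to call circRNAs, so this is no separate test of the junctions. None of the members' 50-base junctions was found as a continuous stretch on its own chromosome. The junctions of members from different hosts differed at 14 or more of the 50 bases.

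For 2 of these circles the whole exonic sequence is given, because their exons are short and coding throughout. These sequences assume that the introns between the exons were removed, which junction reads alone do not show. The 244 bases of circRNA_32031 hold exons 20 to 21 of the 69 exons of USP24, and the 234 bases of circRNA_36156 hold exons 18 to 19 of the 23 exons of HERC6. The length of the HERC6 circle is a multiple of 3, so that the reading frame of the host is kept across the junction, and that of the USP24 circle is not.
USP24 circRNA_32031: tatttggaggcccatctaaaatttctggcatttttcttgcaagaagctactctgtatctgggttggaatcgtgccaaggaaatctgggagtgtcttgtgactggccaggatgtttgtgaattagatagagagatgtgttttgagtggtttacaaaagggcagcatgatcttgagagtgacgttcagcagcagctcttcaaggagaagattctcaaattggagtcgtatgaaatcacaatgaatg
HERC6 circRNA_36156: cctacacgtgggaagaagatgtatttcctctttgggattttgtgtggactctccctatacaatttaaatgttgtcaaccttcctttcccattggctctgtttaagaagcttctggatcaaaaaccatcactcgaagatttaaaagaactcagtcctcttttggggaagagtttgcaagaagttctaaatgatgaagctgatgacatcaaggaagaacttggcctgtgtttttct

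As a group the members looked like the rest of the table. Their exonic length had a median of 384 bases against 431 bases for all circRNAs of the table, and their GC content a median of 41.8% against 43.3%. A typical member held 3 exons, as did a typical circRNA of the table. Of the 99 members with an exon chain, 84 (84.8%, against 82.6% of all) lay wholly in coding sequence. The host's start codon, as annotated in the transcript used, was held by 15 (15.2%, against 15.5%), and its stop codon by 0. Exon 2 was the first exon of the circle in 31 members (31.3%, against 28.3% of all).

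The introns beside the circles were long, with a median of 8445 bases upstream and 6055 bases downstream, against 7822.5 and 6729 bases over all circRNAs. Inverted repeats in these introns are known to favour circles by pairing. Within 1000 bases of the splice sites, the longest exact stretch of one intron that was the reverse complement of the other reached 20 bases in 18% of the members and in 18.6% of all circRNAs. It was longest for KLHL7 circRNA_37781, with 36 bases. The longest exact repeat in the same orientation reached 20 bases in 12% of the members, against 7.57% of all, with 56 bases for HERC6 circRNA_36156. No member held the host's stop codon, as given above. The reading frame of the 15 members with the start codon therefore had to cross the back-splice junction, and its crossing is no finding. In 3 of the 15 (RNF111 circRNA_01592, RNF145 circRNA_18123 and UBE2D2 circRNA_22585) this frame met no stop codon around the circle. The share among all circRNAs with a start codon is not given, so this count is no result about the members. Translation was not measured.

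Many hosts gave 1 circle only. There were 36 hosts with 1 member circRNA, 10 with 2, 8 with 3 and 5 with 4, the last being USP8, TRIM37, FBXW4, UBE2D2 and FBXO11. The 23 hosts with more than 1 made up 39.0% of the member hosts, against 36.6% of all hosts of the table. Such circRNAs often used the same splice site, since 37% of the members shared an end with another circRNA of the table, against 45.2% of all.

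Counts were low for most members. Library totals ran from 16273 to 87867 back-splice reads with a median of 37510, and they were lowest on day 1 and day 7 (16273 to 25283) and highest on day 120 (71092 to 87867). Between pigs of the same age the biological coefficient of variation was 0.300. The smallest value above 0 in the table was 2, so single reads were taken to be listed at 0, which is not stated by the authors. In the following, a normalized count means the raw count after division by the library's effective size (its total after TMM scaling), brought back to the geometric mean of these sizes. The values of the 3 pigs of a stage are separated by slashes, in the order of their replicate numbers. Over the 24 libraries the mean normalized count of a member ranged from 2.50 for RNF168 circRNA_11308 to 180.8 for UBE3A circRNA_02355, with a median of 7.12 against 6.88 for all circRNAs. A mean of at least 10 was reached by 35 of the 100 members and by 33.3% of all circRNAs.

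The 6 most abundant members held 33.6% of the members' normalized counts. The first was UBE3A circRNA_02355, from the HECT ligase that is lost in Angelman syndrome, with a mean of 180.8, which ranked 10 among the 3000 circRNAs. It was followed by RNF115 circRNA_26932 at 101, RNF145 circRNA_18123 at 50.1, FBXW7 circRNA_35477 at 47.9, UBR7 circRNA_34372 at 47.2 and RNF169 circRNA_36571 at 45.5. These levels are read counts of a junction of fixed size and can be set side by side without a length correction. FBXW7 is the F-box protein that selects cyclin E and MYC, RNF169 binds ubiquitin at DNA breaks, and UBR7 is a UBR box protein. The most abundant circles of FBXW7, UBR7 and RNF169 did not pass the age trend in counts scaled by edgeR's TMM factors. FBXW7 stood at 59.7/28/34.7 on day 1 and 56.6/48.2/46.5 on day 180, UBR7 at 43.8/41.2/37.7 and 52.3/69/65.2, and RNF169 at 35.8/47.7/45.2 and 52.3/38.1/33, and the 2 stages overlapped for FBXW7 and RNF169 only. Their adjusted p-values for the age trend were 0.142, 0.256 and 0.902 (edgeR). With clean reads as depth all 3 slopes passed, at 0.29, 0.27 and 0.23 (adjusted p = 1.15e-06, 3.36e-06 and 0.000207, edgeR).

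The members together took 3.25% to 4.08% of the back-splice reads of a library. The mean share was 3.40% ± 0.052 (SD, n = 3) on day 1, 3.32% ± 0.089 on day 7, 3.87% ± 0.063 on day 120 and 3.90% ± 0.16 on day 180. The number of members with reads went from 79.3 ± 7.6 on day 1 to 98.3 ± 0.58 on day 120 and 94.3 ± 1.2 on day 180, in the same order as the library totals at these 3 stages. This count is therefore not depth free. The mean level of a member was highest on day 120 for 19 members, on day 180 for 17, on day 7 for 14, on day 1, day 28 and day 35 for 11 each, on day 21 for 10 and on day 14 for 7.

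The first question was which members changed with age. An age slope, in log2 units per doubling of age in days, was fitted with edgeR's quasi-likelihood test over all 24 libraries, and its p-value was adjusted by Benjamini-Hochberg over the 3000 circRNAs. Of the 100 members 13 rose and 4 fell at an adjusted p under 0.05, whereas over all circRNAs 10.7% rose and 5.77% fell. The members' share was thus close to that of all circRNAs. Their median slope was 0.063, against 0.029 for all circRNAs, and 68 of the 100 slopes were above 0. These counts depended on the scaling. With clean reads as depth, which keeps the larger number of back-splice reads of the late stages, 75 members rose and 0 fell, against 64.8% of all circRNAs called, and the median slope was 0.29 for members and 0.25 for all. With table totals as depth 8 members rose and 7 fell, against 16.2% of all circRNAs called, and the medians were 0.025 and -0.0080. Calls without a named scaling are those of TMM-scaled counts, so that a change is relative to the other circRNAs of the table. More of the abundant members passed. Among members with a mean of at least 10 normalized counts 12 of 35 passed (34.3%, against 30.6% of all circRNAs with this mean), and among the other 65 members 5 passed (7.69%, against 9.45%). A joint test of the 7 stage coefficients, which also finds changes that do not follow the age, called 10 members, and 8.97% of all circRNAs. Together 20 members were called by at least one of these tests and 7 by both. For these joint counts the share of all circRNAs is not given, so they are no result about the members.

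**Figure D1:**
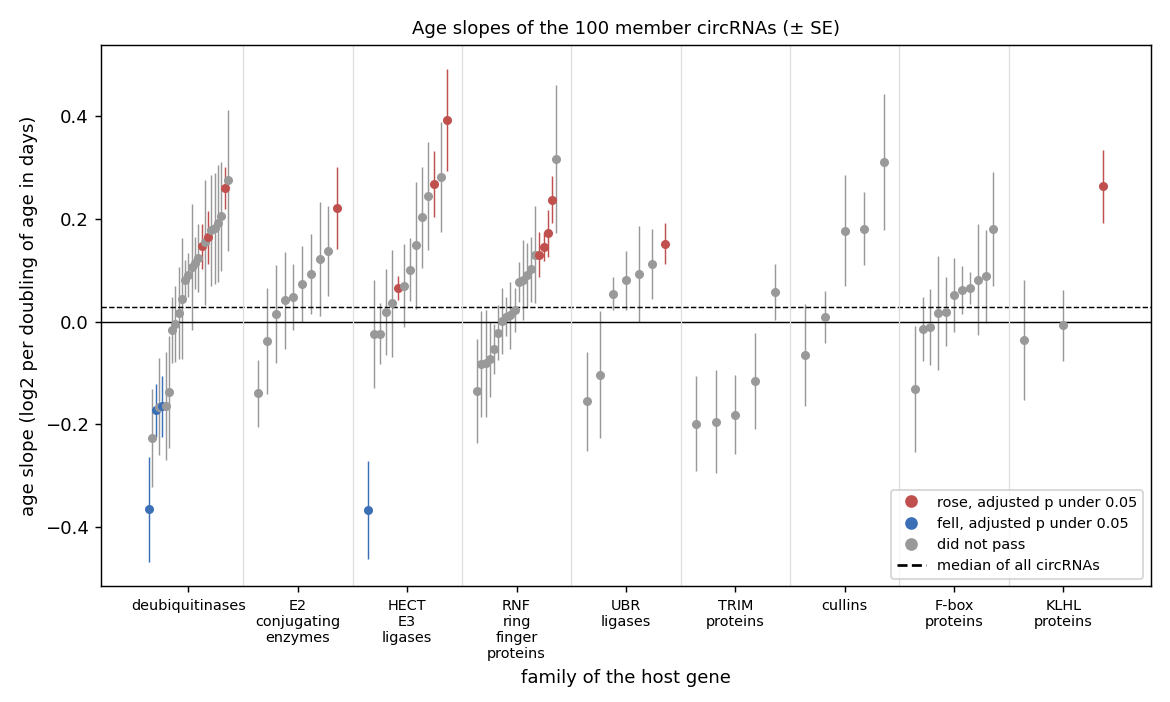
Age slope of each of the 100 member circRNAs (points, log2 per doubling of age in days, with the standard error as a bar), grouped by the family of the host gene; red and blue mark the 13 that rose and the 4 that fell at an adjusted p under 0.05. Deubiquitinases hold 3 of the 4 falls, the 5 TRIM circRNAs include none that passed, and the dashed line at 0.029 is the median of all 3000 circRNAs; with clean reads as depth the slopes of USP7 and USP10 turn above 0.

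Comparisons of each later stage with 1d also required the log2 fold change to be 1 or more in size. By edgeR, 0 members were called on day 7 (0.0% of all circRNAs) and 0 on day 14 (0.0667% of all). At these stages 16 members (8 of them higher) and 8 members (5 of them higher) had an unadjusted p under 0.05 (edgeR). The share of all circRNAs at this unadjusted threshold is not given, and the shares above follow a stricter rule. DESeq2 called 0 at both stages. There was 1 call on day 21 (0.933% of all circRNAs), 2 calls on day 28 (1.57%) and 2 calls on day 35 (2.17%). These calls of day 21, day 28 and day 35 were all circRNAs of HERC6. At the last stages, 5 members were higher and 1 lower on day 120, against 4.63% and 1.47% of all circRNAs, and 6 were higher and 1 lower on day 180, against 5.9% and 3.4%. With clean reads as depth 71 members were higher on day 120 and 39 on day 180 and 0 were lower, against 65.7% and 33.6% of all circRNAs called, and the members' median log2 fold change moved from 0.36 to 2.11 and from 0.40 to 1.47. In total 9 of the 100 members were called in at least one of the 7 comparisons. The share of all circRNAs for this total is not given, so it is no result about the members. All 7 comparisons share the 3 libraries of 1d.

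The E2 enzymes gave 10 circRNAs from 6 hosts, with a highest mean of 10.4 for UBE2J2 circRNA_30508, from an E2 of the endoplasmic reticulum. One of the 10 rose with age, UBE2D1 circRNA_14189, from an E2 that works with many ligases. Its libraries gave 0/0/10.5 on day 1, 11.9/12.8/11.9 on day 35, 10.4/16.8/17 on day 120 and 7.47/10.8/5.25 on day 180. Of the 3 libraries of 1d 2 were listed at 0 and the third overlapped with 120d. The slope was 0.22 ± 0.079 (adjusted p = 0.0447, edgeR), and this call was lost under 15 of 32 alternatives. The 4 circRNAs of the related UBE2D2 had slopes from 0.041 to 0.12 and none passed. UBE2J2 circRNA_30508 went from 9.95/14.8/10.5 on day 1 to 5.34/2.16/9.75 on day 180 and did not pass (slope -0.14 ± 0.065, adjusted p = 0.134, edgeR).

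HECT ligases gave 14 circRNAs from 8 hosts, of which 3 rose and 1 fell with age. The rise with the smallest p-value belonged to HERC6, an interferon-induced member of the family that attaches the ubiquitin-like protein ISG15 in mice. HERC6 circRNA_36152 stood at 3.98/4.94/6.03 normalized counts on day 1, 11.7/7.29/6.39 on day 7 and 24.8/25.8/3.74 on day 14. It then stood at 13.6/45.1/19.2 on day 21, 40.4/24.6/24.1 on day 28, 23.8/21.3/18.6 on day 35, 16.9/16.2/29.1 on day 120 and 27.8/30.2/34.5 on day 180. From 21d on every library was above the highest 1d library, and on day 14 one of the 3 was still below it. The log2 fold change against 1d was 2.53 ± 0.54 (SE) on day 28 and 2.58 ± 0.53 on day 180, with adjusted p-values of 0.00455 and 0.00055 (edgeR). It was also called on day 21, day 35 and day 120, with log2 fold changes of 2.34 ± 0.54, 2.04 ± 0.55 and 2.02 ± 0.54, calls that 7, 9 and 5 of 32 alternatives lost. The first of these was lost without any one library of 1d or replicate 2 of 21d, the second without any one library of 1d or replicate 1 or 2 of 35d, and the last without replicate 1 or 2 of 1d or replicate 3 of 120d. The age slope was 0.27 ± 0.064 (adjusted p = 0.00239, edgeR), and this call and that on day 28 were kept under every alternative run.

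The second circle of HERC6, circRNA_36156, shares no exon with the first. It was listed at 0 in all 3 libraries of 1d and then gave 4.4/10.9/0 on day 7, 20.2/2.63/17.8 on day 28, 10.8/16.3/7.43 on day 35, 5.18/3.48/7.27 on day 120 and 8.54/23/6.75 on day 180. Since 3 libraries at 0 allow an expected total of up to 7 reads, a fold change is only bounded. This is a 95% limit for counting error and assumes that single reads are listed at 0. Set against this limit, the mean was 3.43-fold on day 28, 2.92-fold on day 35, 1.34-fold on day 120 and 3.23-fold on day 180. The spread of the later libraries is not counted in these values, so they are not strict lower limits. The adjusted p-values of these comparisons were 0.00784, 0.00908, 0.041 and 0.00181 (edgeR), whereas the age slope did not pass (adjusted p = 0.0642). Replicates 1 and 2 of 1d and replicate 1 of 28d each decided the call on day 28, which had an adjusted p of 0.0541, 0.0525 and 0.0544 without them (edgeR). The call on day 35 was lost without replicate 1 or 2 of 1d (adjusted p = 0.0551 and 0.0605, edgeR). The call on day 120 was lost under 8 of 32 alternatives, among them without any one library of 1d (adjusted p from 0.118 to 0.128) and without replicate 1 or 3 of 120d (0.0668 and 0.0973) (edgeR). The third circle, circRNA_36164 (exons 13 to 15), stood at 3.98/0/0 on day 1 and 3.2/5.75/6.75 on day 180 with a slope of 0.24 ± 0.11 (adjusted p = 0.101, edgeR).

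**Figure D2:**
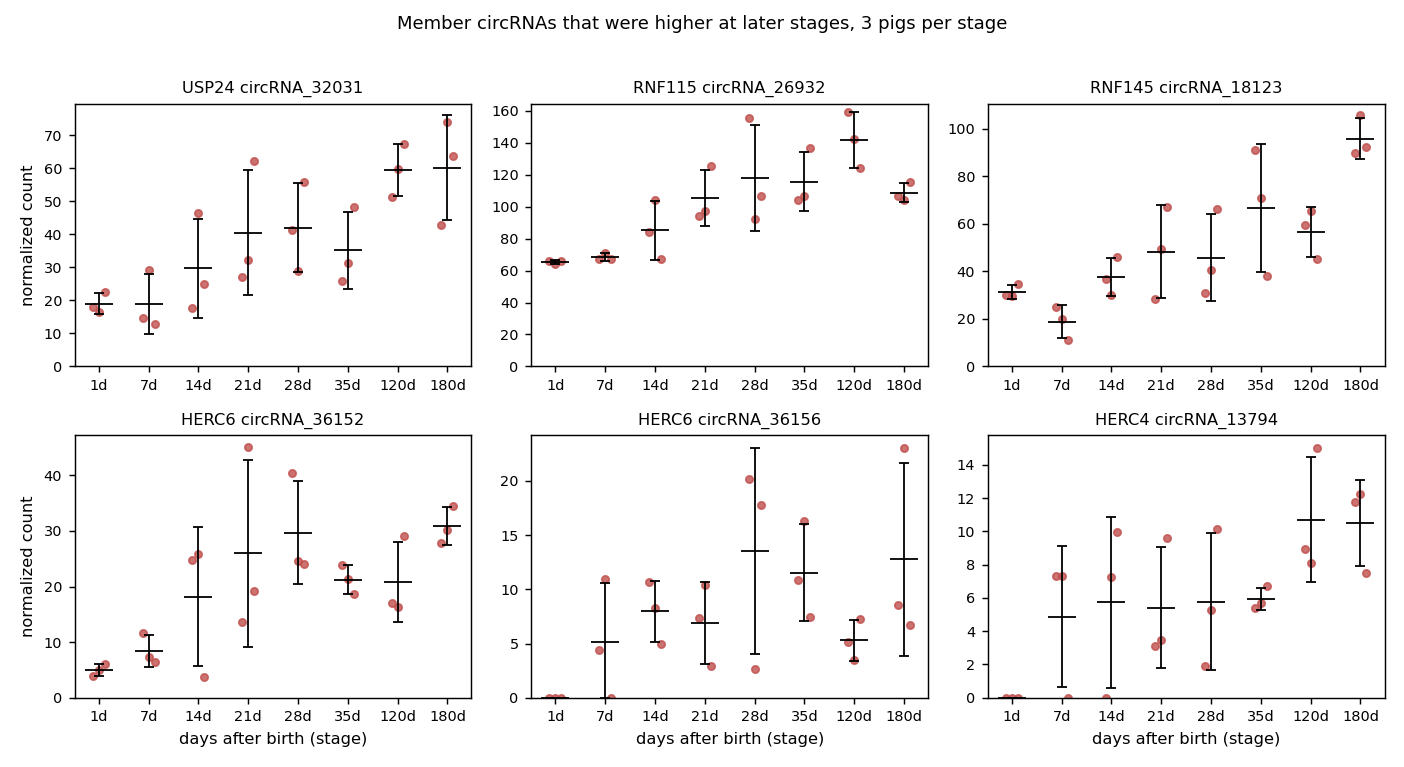
Normalized counts of 6 member circRNAs from 5 host genes in each of the 24 libraries by stage (red points, 1 pig each; black line and bar, mean ± SD of 3 pigs, cut at 0). USP24 circRNA_32031 went from a mean of 19.0 on day 1 to 60.2 on day 180, RNF145 circRNA_18123 was lowest on day 7 and highest on day 180, and HERC6 circRNA_36156 and HERC4 circRNA_13794 were listed at 0 in the 3 libraries of 1d.

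HERC4, a related ligase, gave another circle that was listed at 0 in all libraries of 1d. HERC4 circRNA_13794 gave 7.33/7.29/0 on day 7, 5.41/5.68/6.69 on day 35, 8.95/8.12/15 on day 120 and 11.7/12.2/7.5 on day 180. Set against the same limit of 7 expected reads for 1d, its mean was 2.71-fold on day 120 and 2.66-fold on day 180. The spread of the later libraries is again not counted. The adjusted p-values against 1d were 0.00575 and 0.00532 (edgeR). Its age slope, 0.39 ± 0.099, was the steepest of all members (adjusted p = 0.00365, edgeR). Each of these calls was lost only in the 17 libraries with at least 0.96 valid bases, which leave out most libraries of 120d and 180d. The slope of circRNA_13794 was 0.44 there.

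UBE3A circRNA_02355 was the most abundant member. Its libraries gave 153/191/137 on day 1, 189/235/224 on day 120 and 169.7/218/227 on day 180, and the stages overlapped. The slope of 0.065 ± 0.024 passed by a small margin (adjusted p = 0.0474, edgeR) and this call was lost under 17 of 32 alternatives. Over the alternatives the slope went from 0.026 with table totals to 0.29 with clean reads as depth (adjusted p = 2.87e-07, edgeR). In the other direction, circRNA_19324 of UBE3C, a ligase that works at the proteasome, stood at 15.9/6.58/7.53 on day 1, 7.33/9.12/11.2 on day 7, 2.35/2.9/0.969 on day 120 and 3.2/0/1.5 on day 180. The 180d libraries all lay below the 1d libraries, the log2 fold change was -2.70 ± 0.92 (adjusted p = 0.0464, edgeR) and the age slope -0.37 ± 0.095 (adjusted p = 0.00444, edgeR). The call on day 180 was lost under 17 of 32 alternatives. The slope lost its call with clean reads as depth (-0.15, adjusted p = 0.179) and in the 17 libraries with at least 0.96 valid bases (-0.22, adjusted p = 0.24) (edgeR).

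RNF proteins were the largest ligase family, with 20 circRNAs from 15 hosts and 30.9% of the members' normalized counts. Of these 20, 4 rose and 0 fell with age (edgeR), and 6 of the 20 slopes were below 0. RNF115 circRNA_26932, from a ligase linked to Rab7 and the endosomal system, differed little between the pigs of 1d and of 7d. It stood at 65.7/64.2/66.3 on day 1, 67.4/71.1/67.1 on day 7, 84/104/67.3 on day 14 and 94/97.2/126 on day 21. Later it gave 156/92.2/107 on day 28, 104/106/137 on day 35, 159/143/124 on day 120 and 107/104/115 on day 180. From 14d on every library exceeded the highest 1d library, and the 180d libraries lay below the 120d libraries. The log2 fold change was 1.12 ± 0.21 on day 120 (adjusted p = 0.00035, edgeR) and 0.73 ± 0.22 on day 180 (adjusted p = 0.0201, edgeR), the latter short of the fold change minimum. With DESeq2, its size factors or table totals the value on day 120 was also short of it (0.97, 0.96 and 0.84). The slope was 0.15 ± 0.028 (adjusted p = 0.000129, edgeR).

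RNF145 is a ligase of the endoplasmic reticulum that acts on HMG-CoA reductase, the rate-limiting enzyme of sterol synthesis. Its circRNA_18123 gave 29.9/29.6/34.7 on day 1, 24.9/20.1/11.2 on day 7, 36.7/30.0/46.1 on day 14 and 28.2/49.5/67.3 on day 21. It then gave 30.8/40.4/66 on day 28, 91/70.9/37.9 on day 35, 59.3/65.5/45 on day 120 and 89.7/106/92.2 on day 180. The 7d libraries were the lowest of the series and all below those of 1d, 2 of the 180d libraries were above every library of the other stages, and the third was exceeded only by one of 35d. On day 180 the log2 fold change against 1d was 1.60 ± 0.31 (adjusted p = 0.00028, edgeR), and on day 120 it was 0.84 ± 0.31 and did not pass (adjusted p = 0.0885, edgeR). The slope was 0.24 ± 0.046 (adjusted p = 0.000407, edgeR), and the joint test of the stages gave the smallest p-value of all members (adjusted p = 6.66e-06, edgeR). These 3 calls were kept under every alternative run.

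RNF13 circRNA_10613, from a ligase of endosomes and lysosomes, stood at 17.9/14.8/18.1 on day 1, 7.1/12.4/8.73 on day 14, 32.5/31.3/29.5 on day 120 and 23.5/34.5/32.2 on day 180. Its lowest stage was 14d, and both late stages were above every library of 1d. The slope was 0.17 ± 0.046 (adjusted p = 0.00568, edgeR). RNF216 circRNA_22826 rose from 11.9/13.2/25.6 on day 1 to 23.5/33.6/34.9 on day 120 and 23.5/31.6/30.7 on day 180, with a slope of 0.13 ± 0.043 (adjusted p = 0.0303, edgeR), a call that 10 of 32 alternatives lost. A second circle of RNF216, circRNA_22816, passed the joint test only (adjusted p = 0.031, edgeR) and was lowest on day 7, with 2.93/3.65/4.79, against 5.97/14.8/9.04 on day 1 and 20.3/18/21 on day 180. This joint call was lost under 10 of 32 alternatives, among them without replicate 1, 2 or 3 of 7d (adjusted p = 0.114, 0.0837 and 0.058, edgeR).

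The circles of RNF168, RNF169, RNF2 and RNF111 did not pass the age trend. RNF168 circRNA_11308, from the ligase that marks histone H2A at DNA breaks, was the least abundant member. All 3 libraries of 1d listed it at 0, and it gave 6.12/5.22/4.36 on day 120 and 2.13/0/3.75 on day 180 (slope 0.32 ± 0.14, adjusted p = 0.124, edgeR). The host slope of RNF2, a ligase of the Polycomb repressive complex, was -0.073 ± 0.073 (adjusted p = 0.509, edgeR), and that of RNF111, which acts in TGF-beta signalling, was 0.0039 ± 0.041 (adjusted p = 0.961, edgeR).

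The UBR family gave 7 circRNAs from 4 hosts, and 1 rose with age. UBR3 gave 2 circles that begin with exon 3, circRNA_15967 (exons 3 to 6) and circRNA_15966 (exons 3 to 4). The longer one stood at 17.9/23/13.6 on day 1, 14.7/29.2/11.2 on day 7, 39.5/27.8/39.7 on day 120 and 32/43.1/38.2 on day 180. All libraries of 120d and 180d were above those of 1d, with a log2 fold change of 1.07 ± 0.34 on day 180 (adjusted p = 0.0333, edgeR) and a slope of 0.15 ± 0.039 (adjusted p = 0.00457, edgeR). The shorter one stood at 25.9/19.8/9.04 on day 1, 5.86/3.65/3.19 on day 7, 16.5/23.2/21.8 on day 120 and 12.8/9.34/24 on day 180. It was lowest on day 7, where all libraries lay below those of 1d, and passed only the joint test (adjusted p = 0.0283, edgeR). The call of the longer one on day 180 was lost under 9 of 32 alternatives, and the joint call of the shorter one under 5, among them without 7d replicates 2 or 3 and without 120d replicates 2 or 3 (adjusted p from 0.0692 to 0.0883, edgeR).

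TRIM proteins gave 5 circRNAs, 4 of them from TRIM37, a ligase that limits the number of centrioles, and 1 from TRIM33. None of the 5 passed the test of the age trend by edgeR, and the unadjusted p was under 0.05 for 2 of them. The 4 circles of TRIM37 had slopes of -0.12 ± 0.094, -0.20 ± 0.092, -0.18 ± 0.077 and -0.19 ± 0.1. Summed over the 4, TRIM37 gave 21.1 to 31.9 on day 1, 41.5 to 45.4 on day 7, 12.8 to 17.9 on day 120 and 7.47 to 17.2 on day 180 (range of 3 libraries). The circle of TRIM33, a chromatin and SMAD regulator, went from 13.9/8.23/10.5 on day 1 to 11.7/15.1/17.2 on day 180. The TRIM37 sum was highest on day 7, and every library of 120d and 180d lay below every library of 1d. The host sum fell with age at a slope of -0.18 ± 0.046 (adjusted p = 0.00317, edgeR), which turned to 0.059 with clean reads as depth.

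Cullins, F-box and KLHL proteins form cullin ligases together and gave 5, 11 and 3 circRNAs. Of these 19 circRNAs 1 passed the age trend. It was circRNA_37781 of KLHL7, an adaptor of CUL3 ligases, with 9.95/0/6.03 on day 1, 17.4/8.7/10.2 on day 120 and 18.1/11.5/17.2 on day 180 and a slope of 0.26 ± 0.071 (adjusted p = 0.00671, edgeR). The libraries of 180d lay above those of 1d, and those of 120d overlapped with them. KLHL24 circRNA_11033, the most abundant KLHL circle, stood at 0/18.1/9.04 on day 1 and 6.4/8.62/9.0 on day 180 (adjusted p = 0.962, edgeR). CUL3 circRNA_16904, the most abundant cullin circle, gave 19.9/34.6/24.1 on day 1 and 7.47/12.9/27.7 on day 180, which overlapped (adjusted p = 0.934, edgeR). CUL5, the scaffold of ligases with SOCS box proteins, gave 2 circles that begin with exon 14, and neither passed alone. Their sum rose from 0 to 10.5 on day 1 to 16.9 to 23.7 on day 120 and 8.62 to 21.3 on day 180, with a slope of 0.19 ± 0.059 (adjusted p = 0.0156, edgeR), and one library of 180d overlapped with 1d. Without 1d replicate 2 this call was lost (adjusted p = 0.07, edgeR). The 11 F-box circRNAs, among them the 4 of FBXW4 and the 4 of FBXO11, had slopes from -0.13 to 0.18 and none passed (edgeR).

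Deubiquitinases gave 25 circRNAs from 14 hosts, of which 3 rose and 3 fell with age. The member with the smallest p-value in the age trend was USP24 circRNA_32031. It gave 17.9/16.5/22.6 on day 1, 14.7/29.2/12.8 on day 7, 17.7/46.5/24.9 on day 14 and 27.1/32.1/62.1 on day 21. It went on to 41.3/29/55.9 on day 28, 26/31.2/48.3 on day 35, 51.3/59.7/67.3 on day 120 and 42.7/74/63.7 on day 180. All libraries from 21d on were above those of 1d. The slope was 0.26 ± 0.041 (adjusted p = 3.54e-06, edgeR), and the log2 fold change against 1d was 1.63 ± 0.35 on day 120 (adjusted p = 0.00199, edgeR) and 1.66 ± 0.36 on day 180 (adjusted p = 0.00125, edgeR). The slope was called under every alternative, and the calls on day 120 and day 180 were kept except in the 17 libraries with at least 0.96 valid bases, where the log2 fold changes were 1.43 (adjusted p = 0.074) and 1.12 (adjusted p = 0.258) (edgeR).

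The other rises among deubiquitinases were smaller. OTUD4 circRNA_35580 stood at 7.96/18.1/18.1 on day 1, 27.3/28.4/25.7 on day 120 and 23.5/28/24 on day 180, with a slope of 0.15 ± 0.044 (adjusted p = 0.015, edgeR). USP8 sorts receptors at endosomes, and its circRNA_01853 stood at 15.9/8.23/16.6 on day 1, 38.1/18/28.6 on day 120 and 34.2/15.8/20.2 on day 180, with a slope of 0.16 ± 0.051 (adjusted p = 0.0197, edgeR). For OTUD4 both late stages lay above 1d, and for USP8 only 120d did. Leaving out replicate 2 of 1d, replicate 1 of 120d or replicate 1 of 180d ended the call for USP8, with adjusted p-values of 0.0506, 0.0698 and 0.0526 (edgeR). Table totals as depth ended both calls (0.0822 for USP8 and 0.0741 for OTUD4). The most abundant circle of USP8, circRNA_01834, had 23.9/9.88/21.1 on day 1 and 28.8/26.6/29.2 on day 180 and did not pass (adjusted p = 0.138, edgeR).

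The falls came from USP7, USP32 and USP10. USP7 removes ubiquitin from MDM2 and p53. Its circRNA_23543 stood at 19.9/24.7/24.1 on day 1, 35.2/52.9/35.1 on day 7, 10.6/23.8/22.4 on day 14 and 38.6/19.1/20.7 on day 21. It then stood at 18.3/21.1/16.5 on day 28, 30.3/14.9/8.92 on day 35, 23.1/11.6/14.5 on day 120 and 8.54/10.1/11.2 on day 180. The 7d libraries were all above those of 1d and the 180d libraries all below them. The slope was -0.17 ± 0.052 (adjusted p = 0.0148, edgeR) and the joint test gave an adjusted p of 0.00915 (edgeR), while no single comparison with 1d passed. Without 7d replicate 2 the joint call was lost (adjusted p = 0.088, edgeR), and with clean reads as depth the slope turned to 0.066.

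USP32, a membrane-bound deubiquitinase, gave circRNA_08189, with 11.9/9.88/9.04 on day 1, 13.2/9.12/7.98 on day 7, 0/1.74/1.94 on day 120 and 0/1.44/6.0 on day 180. Every library of 120d and 180d lay below every library of 1d. The log2 fold change was -2.98 ± 0.94 on day 120 (adjusted p = 0.0401, edgeR) and the slope -0.37 ± 0.1 (adjusted p = 0.00823, edgeR). The call on day 120 was lost without any one of the 6 libraries compared (adjusted p from 0.0612 to 0.174, edgeR). USP10, which acts on p53, gave circRNA_29552, with 21.9/8.23/19.6 on day 1, 31.9/22.7/16.2 on day 14, 6.59/9.28/4.36 on day 120 and 14.9/7.19/8.25 on day 180. The late stages overlapped with 1d, and the slope of -0.17 ± 0.059 (adjusted p = 0.0425, edgeR) was lost under 14 of 32 alternatives and turned to 0.048 with clean reads as depth.

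**Figure D3:**
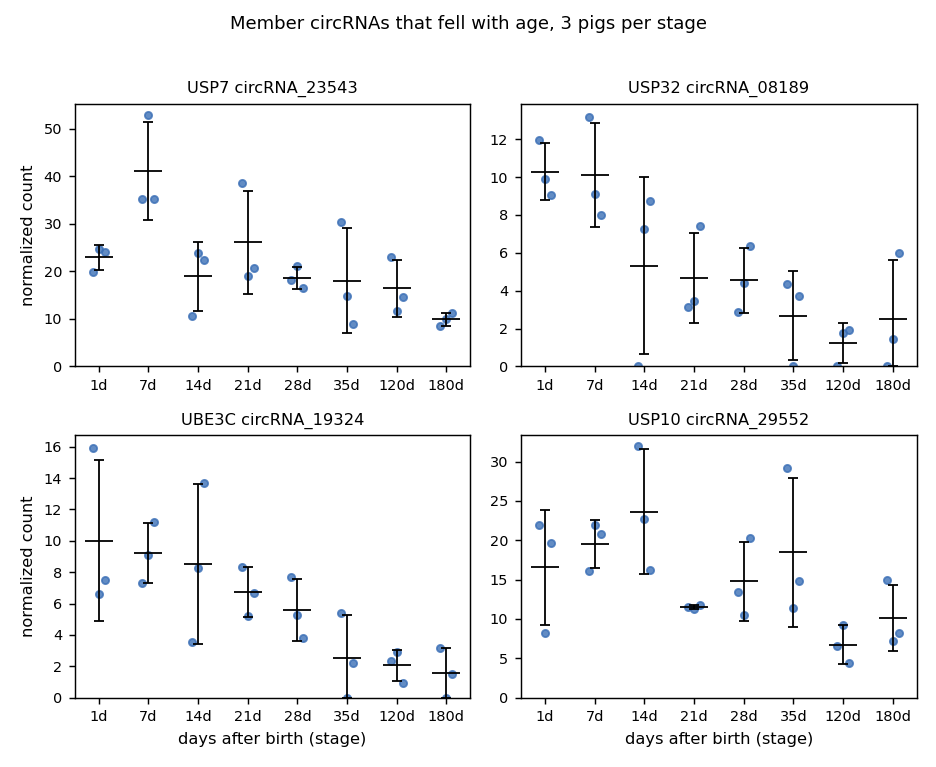
Normalized counts of the 4 member circRNAs that fell with age, from USP7, USP32, UBE3C and USP10, in each of the 24 libraries by stage (blue points, 1 pig each; black line and bar, mean ± SD of 3 pigs, cut at 0). USP7 circRNA_23543 peaked on day 7 and was lowest on day 180, whereas USP32 and UBE3C fell to means under 3 on day 120 and day 180; with clean reads as depth the slopes of USP7 and USP10 turn above 0 and those of USP32 and UBE3C no longer pass.

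Summed over the circRNAs of a host, 12 of the 59 member hosts rose and 5 fell with age, against 15.9% and 7.78% of the 1670 hosts of the table. The median slope was 0.068 over the 59 hosts and 0.034 over all hosts. With clean reads as depth 45 member hosts rose and 0 fell, against 73.1% of all hosts called, and with table totals 6 rose and 7 fell, against 22.9%. The hosts that rose were USP24, USP8 and OTUD4 (deubiquitinases), UBE2D1 (E2), HERC6 and UBE3A (HECT), RNF115, RNF13 and RNF145 (RNF), UBR3, CUL5 and KLHL7. Those that fell were USP7, USP10, USP32, UBE3C and TRIM37, of which USP7, USP10 and TRIM37 turned above 0 with clean reads as depth. HERC6 went from 6.31 ± 1.53 (SD, n = 3) on day 1 to 48.8 ± 9.75 on day 180 with a slope of 0.28 ± 0.067 (adjusted p = 0.0025, edgeR). USP24 went from 29.4 ± 2.82 to 75.7 ± 10.1 with a slope of 0.19 ± 0.031 (adjusted p = 5.57e-06, edgeR). The sums of HERC6, RNF115, RNF145 and USP24 were called under every alternative, whereas those of OTUD4, UBE2D1, UBE3A, USP8 and USP10 were lost under 10, 9, 8, 6 and 10 of 32.

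Whether the circRNAs of a host moved alike was tested for the 23 member hosts with more than 1, by edgeR's test for unequal slopes within a gene. HERC4 was called (adjusted p = 0.0375), 1 of 23 hosts against 2.94% of the 612 hosts tested in the table. While HERC4 circRNA_13794 rose, circRNA_13804 (exons 4 to 8) stood at 9.95/11.5/9.04 on day 1 and 8.54/9.34/15 on day 180, and circRNA_13806 (exons 4 to 7) at 0/9.88/4.52 and 7.47/5.75/6.75. Their slopes were -0.023 ± 0.059 and 0.019 ± 0.084, and neither passed (edgeR). The call for HERC4 rests on few reads and was lost without any one of 11 libraries. For USP24 the adjusted p was 0.0943, with slopes of -0.017 ± 0.064 for circRNA_32025 and 0.19 ± 0.11 for circRNA_32045 beside 0.26 ± 0.041 for circRNA_32031. For UBE3C it was 0.137, with slopes of -0.37 ± 0.095 for circRNA_19324 and -0.023 ± 0.11 for circRNA_19322, which share the donor end of exon 17. These 2 hosts did not pass (edgeR).

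**Figure D4:**
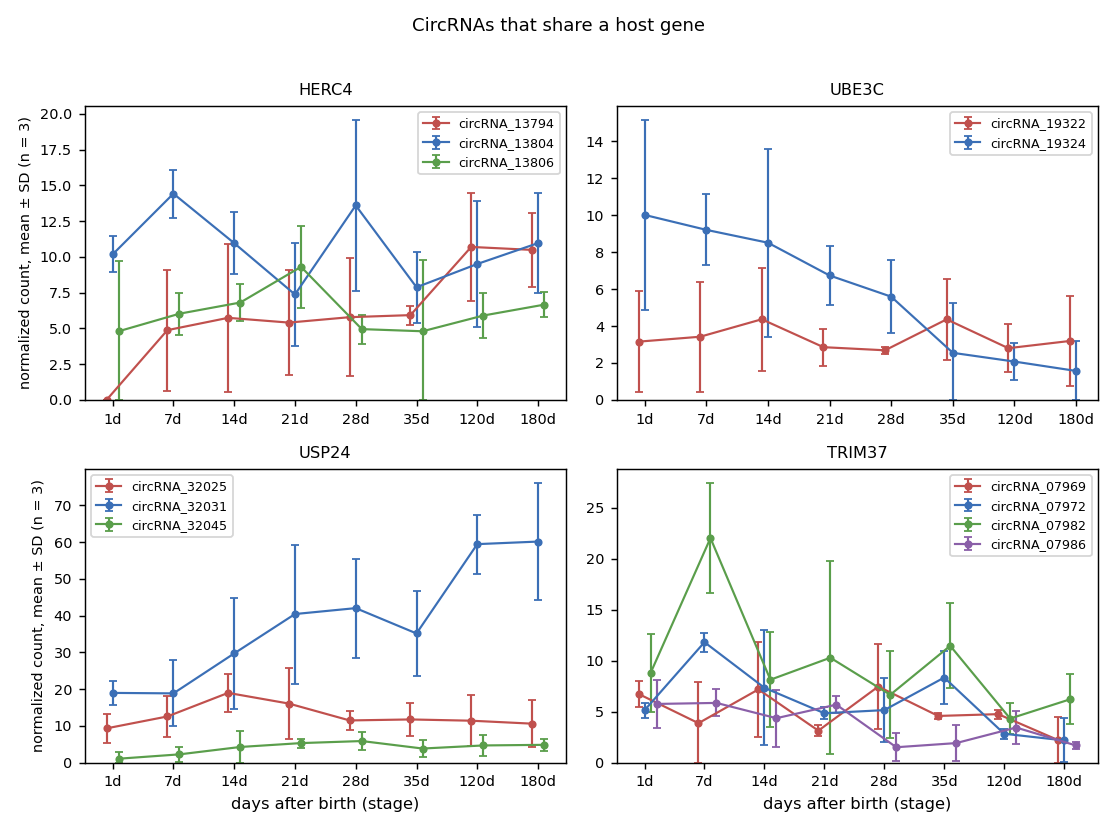
Mean normalized count by stage (± SD, n = 3 pigs, bars cut at 0) of each circRNA of HERC4, UBE3C, USP24 and TRIM37, 1 line per circRNA. In HERC4 circRNA_13794 starts at 0 while circRNA_13804 stays between 7.37 and 14.4, and the 4 lines of TRIM37 all end lower than they start; with clean reads as depth the slope of their sum turns above 0.

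Other genes of the ubiquitin system, from a list of 250 symbols of E1 enzymes, further ligases and adaptors, further deubiquitinases and proteasome subunits, were set beside the members. The table held 123 circRNAs of 60 of these genes, of which 10 rose and 4 fell with age (edgeR). This was 11.4% of them, against 16.5% of all circRNAs, of which 10.7% rose and 5.77% fell. The median slope was 0.024, against 0.029 for all. The 4 with the smallest p-values all rose. USP3 circRNA_01497, from a deubiquitinase of histone H2A, went from 28.8 ± 2.22 on day 1 to 96.4 ± 25 on day 180 (slope 0.26 ± 0.029, adjusted p = 3.24e-09, edgeR). MINDY3, a deubiquitinase for long chains, gave circRNA_05362 (slope 0.26 ± 0.04, adjusted p = 1.48e-06) and circRNA_05361 (slope 0.15 ± 0.031, adjusted p = 0.000313) (edgeR). MYCBP2, a large RING ligase, gave circRNA_06898 (slope 0.34 ± 0.06, adjusted p = 3.92e-05, edgeR).

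Marker genes of spleen cell types moved with age in the same libraries, in TMM-scaled counts. With this scaling 10.7% of all circRNAs rose and 5.77% fell, whereas with clean reads as depth 64.6% rose and 0.2% fell. A fall given below is therefore one relative to the other circRNAs of the table. Of 30 circRNAs from 13 of the 25 cell cycle genes listed, 15 fell and 0 rose by edgeR, and their summed normalized count was 348 to 357 on day 1 and 115 to 150.2 on day 180. Of 8 erythroid circRNAs, from TFRC and EPB41, 5 fell, with sums of 108 to 143 on day 1 and 45.9 to 60.7 on day 180. Of 8 B cell circRNAs, from BANK1, RALGPS2, AFF3 and PRKCB, 3 rose, with sums of 21.4 to 57.3 on day 1 and 55.5 to 115 on day 180. Summed per host, 8 of the 13 cell cycle genes and only 1 of the 2 erythroid genes fell, and 2 of the 4 B cell genes rose (edgeR). The single macrophage circRNA, of CTSS, rose from a range of 9.88 to 15.1 to one of 47.0 to 82.7, and the single T cell circRNA, of TOX, did not pass. Of 15 stromal and endothelial genes, and of defining markers such as MS4A1, CD3E and CD163, no circRNA was in the table, so that the labelled tissue could be checked only through these few hosts. Their part in the changes of the members was not tested. In whole spleen, fewer cells of a type and less of a circRNA per cell cannot be told apart.

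The share of valid bases of a library was under 0.96 in 7 libraries, of which 1 was from 21d and 2 each from 35d, 120d and 180d, with none from 1d. In the 17 other libraries 5 members passed the age trend, with 3.9% of all circRNAs, against 17 members and 16.5% of all in the 24 libraries. These were USP24 circRNA_32031, RNF115 circRNA_26932, RNF145 circRNA_18123, HERC6 circRNA_36152 and USP32 circRNA_08189, with slopes of 0.20, 0.16, 0.21, 0.34 and -0.44.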

How the data were processed

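Ribosomal-RNA-depleted spleen libraries of 24 pigs were sequenced. The paper's methods describe TRIZOL, RNase R digestion and a directional NEBNext kit, and the sample labels RNeasy and TruSeq Stranded Total RNA kits, which was not settled. The authors trimmed the reads (FastQC and cutadapt in the submitters' notes), aligned them to Sscrofa11.1 with BWA (TopHat2 is also named) and called circRNAs with CIRI2. The deposited values are raw counts of back-splice reads per circRNA and library, not normalized, for 3000 circRNAs. The paper reports many more circRNAs, and how these 3000 were chosen is not stated.

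Hosts were RefSeq genes of Sscrofa11.1 on the same strand with exon ends within 1 base of both ends. Of the 3000 circRNAs 2848 had a host, 2842 exactly 1. Counts were tested in edgeR 4.0.16 (R 4.3.3; TMM, estimateDisp, robust glmQLFit, glmQLFTest) over 24 libraries with no filter and no covariate. A fit by stage gave 7 comparisons with 1d and a joint test of the 7 stage coefficients. A separate fit on log2 age gave the slope, and diffSpliceDGE for hosts with 2 or more circRNAs. Another fit gave the same slope on host sums. All tests were two-sided, with Benjamini-Hochberg adjustment over all rows of each test at 0.05. The scripts were tested on simulated counts. The limit for 3 libraries at 0 was an expected total of 7 counts, with single reads taken as listed at 0. Intervals and limits cover counting error only.

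The members and gene lists were chosen with earlier results of these data known. Named were members called in the age trend or over all stages (up to 12, by p-value), the 6 most abundant, the most abundant of each family, hosts with the most circRNAs, members called against 1d, and 4 other ubiquitin genes by p-value. USP10, UBE2D1, RNF216, RNF168, UBR3 circRNA_15966, the second circles of HERC4, UBE3C, USP24 and HERC6, and the hosts RNF2, RNF111, TRIM37 and CUL5 were added after their values were seen. Alternatives were DESeq2 1.42.0, its size factors in edgeR, depth from clean reads or from table totals, filterByExpr, the replicate number as a block, library GC as a covariate, libraries with at least 0.96 valid bases, and leaving out each of 24 libraries. No 2 libraries of a stage agreed within sampling noise. Annotation and figures used Python 3.11.15, pandas 2.3.3, pysam 0.24.0 and matplotlib 3.10.9.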

Additional observations from a re-analysis of the deposited data

How the results depend on the processing

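Scaling by clean reads, which keeps the larger number of back-splice reads at late stages, moved the median slope of all circRNAs from 0.029 to 0.25, and the median log2 fold change from 0.26 to 1.99 on day 120 and from 0.20 to 1.27 on day 180. It then called 3 members on day 14 (2.83% of all circRNAs), 31 on day 21 (20.9%), 17 on day 28 (14.4%), 39 on day 35 (30.7%), 71 on day 120 (65.7%), 39 on day 180 (33.6%), 60 over all stages (50.5%) and 75 in the age trend (64.8%), 45 hosts (73.1% of all hosts), and 0 hosts with unequal circRNAs. Under it the slopes turned to 0.21 for KLHL24, 0.20 for HERC4 circRNA_13804, 0.066 for USP7, 0.20 for FBXO11 circRNA_24678, 0.048 for USP10, 0.21 for USP24 circRNA_32025 and, as host sums, 0.059 for TRIM37, 0.048 for USP10 and 0.066 for USP7.

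The 17 libraries with at least 0.96 valid bases leave fewer samples. In them 0 members were called on day 21 (0.0667% of all circRNAs) and 0 on day 35 (0.1%). There was 1 call on day 120 (1.87%) and 1 on day 180 (1.83%). Over all stages 3 members were called (3.3%) and in the age trend 5 (3.9%). Of the hosts 6 were called (7.66% of all hosts), and 0 hosts had unequal circRNAs. DESeq2 called 0 on day 21, 1 on day 35 and 18 over all stages, against 10 by edgeR. Library GC as a covariate gave 0 on day 21 and 1 on day 35, and filterByExpr gave 2 hosts with unequal circRNAs. The shares of all circRNAs under DESeq2, library GC and filterByExpr are not given here, so these counts are no result about the members. Table totals gave 1 on day 35 (1.8% of all circRNAs). The cause was not tested.

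Leaving out 1 library gave 0 members on day 7, 0 to 1 on day 14, 0 to 1 on day 21, 1 to 4 on day 28, 0 to 3 on day 35, 3 to 7 on day 120, 5 to 9 on day 180, 8 to 11 over all stages, 13 to 18 in the age trend, 13 to 19 hosts and 0 to 1 host with unequal circRNAs. The count on day 120 was 3 without replicate 1 or 2 of 1d or replicate 3 of 120d. On day 14 it was 1 without replicate 3 of either stage. On day 21 it was 0 without any library of 1d or replicate 2 of 21d. On day 28 it was 1 without replicate 1 or 2 of 1d or replicate 1 of 28d, and 4 without replicate 3 of 1d. On day 35 it was 0 without replicate 1 or 2 of 1d and 1 without replicate 1 or 2 of 35d. The replicate numbers did not pair the pigs (mean correlation of deviations 0.0062, 1 of 84 pairs over 0.1). With the replicate block 17 members were called in the age trend, 11 over all stages, 6 on day 120 and 6 on day 180. The shares of all circRNAs without each library and with the block are not given here. These counts therefore show only how the members' calls vary. Of the 100 members 65 had a mean under 10 normalized counts, which limits the precision of their fold changes.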
